A study of Mus musculus with 6 samples.

Results

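Adra2a and Avpr2 are a pair of G protein-coupled receptor genes that act on the second messenger cyclic AMP (cAMP). They were selected on the readout, because both are among the genes that the authors listed for the comparison of dendritic cells given rapamycin with dendritic cells given vehicle. They make up 2 of the 139 listed genes, out of 55450 genes in the GENCODE M21 annotation, so that 0.251% of all annotated genes are listed. The listing itself is therefore how the genes were found and not a result about them.

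The cells were bone marrow-derived dendritic cells (BMDCs) of C57BL/6 mice, grown for 8 days with GMCSF at 6 ng/mL, a growth factor that drives marrow cells toward dendritic cells. Veh-DC received vehicle, and Rapa-M-DC received 3 treatments with 10 ng/mL of the mTOR inhibitor rapamycin. There were 3 libraries of poly(A) RNA in each group, and the wild-type strain was the same in both. Between 80 and 90% of cells in such cultures carry CD11c according to the labels, so other marrow cells were present. The study's main text describes the sequenced cells as LPS-treated. The labels name vehicle as the second agent, and the study's supplementary methods likewise name the compared groups as Veh/Veh and Rapa/Veh. The LPS status of the libraries is not settled here.

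G protein-coupled receptors sit in the cell membrane and pass a signal to a G protein inside the cell. Adra2a encodes an adrenergic receptor for adrenaline and noradrenaline that couples to inhibitory G proteins, which lower cAMP. Avpr2 encodes a receptor for the hormone vasopressin that couples to stimulatory G proteins, which raise cAMP. Avpr2 is best known from the collecting duct of the kidney, where it directs water channels to the membrane, and Adra2a from neurons, where it restrains the release of noradrenaline. In immune cells cAMP signalling is known to restrain the release of inflammatory cytokines.

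The 2 genes differ in how they lie in the genome (GRCm38, the build on which the reads were aligned). Adra2a (ENSMUSG00000033717) lies on the plus strand of chromosome 19 from 54044151 to 54048982. Its coding sequence of 1395 bases, or 465 codons, lies within 1 exon. Avpr2 (ENSMUSG00000031390) lies on the plus strand of chromosome X from 73892102 to 73895502. The coding sequence of its longest reading frame has 1113 bases, or 371 codons, and is spread over 3 exons. The first coding bases of each gene are shown to mark where the reading frames begin, with the start codon in capitals. The Adra2a stretch lies at chr19:54046215-54046238 and the Avpr2 stretch at chrX:73892244-73892267, both on the plus strand, and both were read from the GENCODE M21 transcripts.
Adra2a: ATGttccgccaggagcagccgctg
Avpr2: ATGatcctggtgtctaccacgtct

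The introns of Avpr2 matter for its identity, because a sequence that crosses a splice junction is unbroken in the spliced mRNA and is interrupted by the intron in the DNA of the gene. Avpr2 has 4 annotated transcripts, numbered here by where they start, of which transcript 2 is non-coding. The junctions that the longer coding transcripts use are shown with the last 15 bases of one exon in lower case and the first 15 bases of the next exon in capitals. The first junction of transcript 1 joins the exon ending at 73892268 to the exon starting at 73892624. The first junction of transcript 3 uses the same donor and an acceptor at 73892627, which leaves out 3 bases. The second junction of transcripts 1 and 4 joins 73893508 to 73893669, and that of transcript 3 joins 73893420 to 73893669.
Avpr2 transcript 1, first junction: tgtctaccacgtctgCAGTGCCTGGGGCCC
Avpr2 transcript 3, first junction: tgtctaccacgtctgTGCCTGGGGCCCTTT
Avpr2 transcripts 1 and 4, second junction: aagctcctctggaaaGACCCCCCTTTGTGT
Avpr2 transcript 3, second junction: gtgaggatgacactgGACCCCCCTTTGTGT

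Each of these 30-base sequences was found in transcripts of Avpr2 and in those of no other annotated gene, and their reverse complements were found in 0 annotated transcripts. The introns removed at the junctions of transcript 1 are 355 and 160 bases long. Both lie wholly inside a single exon of Arhgap4 on the other strand. A read over one of these junctions would therefore mark spliced Avpr2 RNA whatever the strand setting. The deposited table gives 1 value per gene, so reads over junctions were not counted here, and bowtie2, the aligner that was used, does not split reads over introns. Both coding transcripts of Adra2a carry the coding sequence in 1 piece, and transcript 1 has 0 introns.

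The levels come from the base mean, which is the authors' mean of the normalized counts over all 6 libraries of both groups. It has no spread and no value for a single library, and the depth of the libraries is unknown. A level in Veh-DC or in Rapa-M-DC, a difference between them and a test of that difference were therefore not computed here. The authors' own fold changes and p-values were not used, and no direction is taken from them.

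The base mean of Avpr2 was 247 normalized counts and that of Adra2a was 51.4. Avpr2 was thus 4.81 times Adra2a as a base mean. Among the 139 listed genes, base means ran from 7.08 to 1742 with a median of 29.2. Avpr2 was at rank 11 from the top and Adra2a at rank 42, so both lay in the upper part of the list before gene length was considered.

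Longer genes collect more reads, and the 2 genes differ in length. The exons of all transcripts merged came to 4832 bases for Adra2a and 2886 bases for Avpr2. Per kb of exon the base mean was 10.6 for Adra2a and 85.6 for Avpr2, a ratio of 8.05. On this scale Adra2a was at rank 70 of 139 and its value is the median of the list, while Avpr2 was at rank 21. The listed genes ran from 0.612 to 483 normalized counts per kb.

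**Figure D1:**
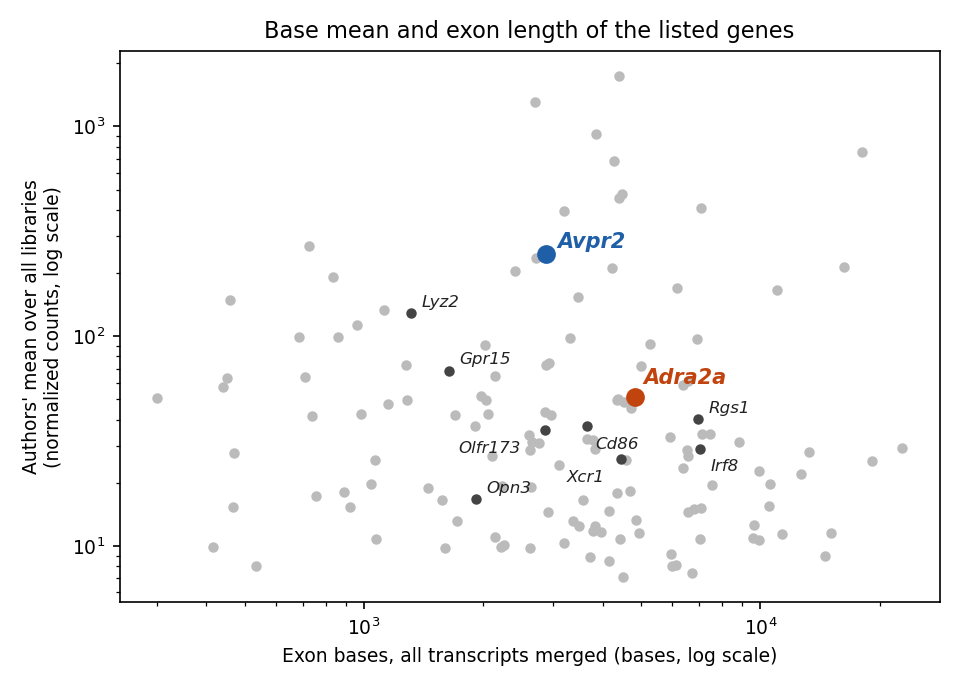
Each point is 1 of the 139 listed genes, with merged exon length in bases on the x axis and the authors' base mean in normalized counts on the y axis, both on log scales. Avpr2 (2886 bases, 247 normalized counts) lies above and to the left of Adra2a (4832 bases, 51.4 normalized counts), and dark points mark the other receptor, pathway and marker genes named in the text.

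Next to Adra2a in the order per kb stood Gm6598 (10.9) and Stk16 (10.8) above it, and Asgr2 (10.5) and Cd86 (10.2) below it. Stk16 encodes a membrane-bound protein kinase, Asgr2 a subunit of the asialoglycoprotein receptor, and Cd86 a costimulatory molecule of antigen-presenting cells. Next to Avpr2 stood the pseudogene Gm21370 (90.0) and Fam98c (86.5) above it, and the non-coding genes Gm28417 (84.5) and Gm12195 (59.4) below it. No spread is known for any of these base means, so neighbours in the order cannot be said to differ.

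The values were set beside the annotation of the other strand, since a read can be counted for a gene only where the counting program can assign it. No annotated gene overlaps Adra2a on either strand. The nearest gene before it is Shoc2, a scaffold protein of the Ras pathway, which ends 11017 bases away, and the nearest after it is the long non-coding RNA AC113491.1, 35576 bases away. All 4832 exon bases of Adra2a thus have 0 bases opposite another exon.

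Avpr2 lies inside Arhgap4 (ENSMUSG00000031389, minus strand of chromosome X, 73891442 to 73921870), a gene known to be active in blood cells. Of the 2886 exon bases of Avpr2, 2347 (81.3%) lie opposite an Arhgap4 exon. This covers all 142 bases before the coding sequence and all 1113 coding bases. Of the 1631 bases after the coding sequence, 1092 (67.0%) lie opposite an Arhgap4 exon. L1cam, a neural adhesion molecule gene on the minus strand, also spans Avpr2 in its annotated extent, but it shares 0 exon bases with it. L1cam reaches Avpr2 only through the non-coding transcript ENSMUST00000141221, and in RefSeq their gene spans share 0 bases. The nearest genes that do not overlap Avpr2 are Pdzd4, 67132 bases before it, and Naa10, 21370 bases after it. Arhgap4, L1cam, Pdzd4 and Naa10 are not among the 139 listed genes, and neither are Shoc2 and AC113491.1.

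**Figure D2:**
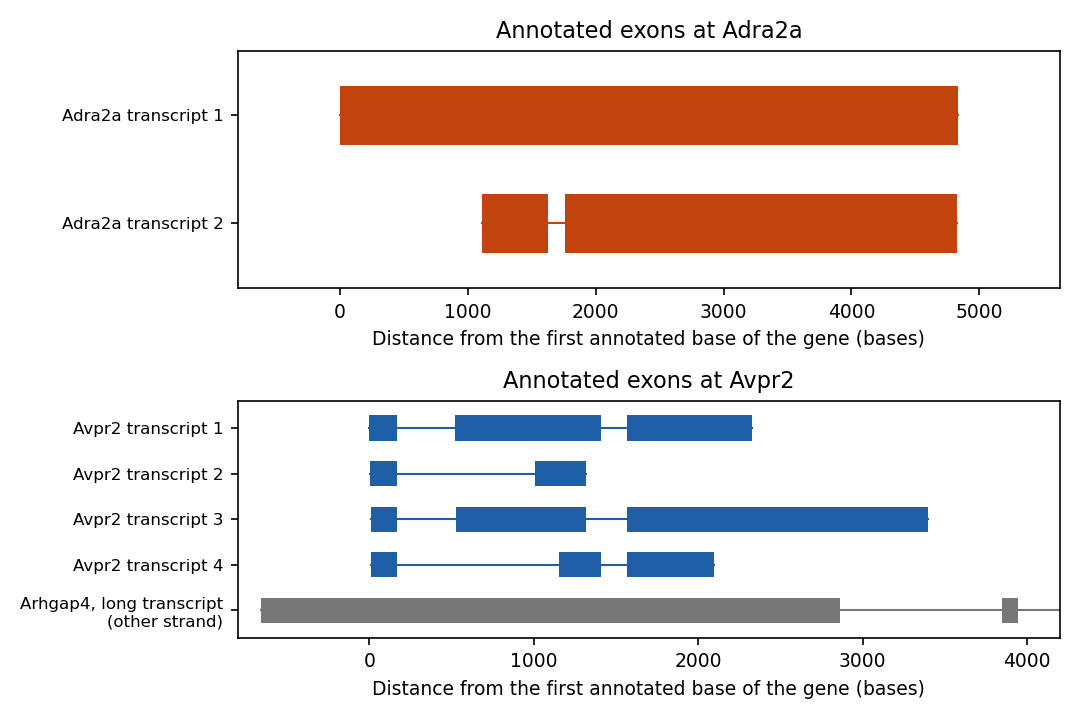
Boxes are annotated exons and thin lines are introns, drawn to scale by distance in bases from the first annotated base of each receptor gene, with the receptor transcripts in colour and the long Arhgap4 transcript of the other strand in grey. The first and second exons and part of the last exon of Avpr2 lie within the grey Arhgap4 exon, while Adra2a has no annotated exon on its other strand.

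The overlap with the coding sequence of Avpr2 rests on 1 transcript. Of the 20 annotated Arhgap4 transcripts, 12 have an exon opposite an Avpr2 exon, and 1 of them (ENSMUST00000114405) reaches the coding sequence of Avpr2, with a last exon that begins at 73891442 and ends at 73894963. Without this transcript, 612 exon bases of Avpr2 lie opposite Arhgap4, and these all follow its coding sequence. In RefSeq, on the same build, Arhgap4 ends at 73894352 and Avpr2 at 73894428, so that the 2 gene spans share 77 bases, or 2.89% of the Avpr2 span. Adra2a overlaps 0 bases of another gene in RefSeq as well. How much of Avpr2 faces Arhgap4 therefore differs by a wide margin between annotations, and the release that the authors used is not given in the sources used here.

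**Figure D3:**
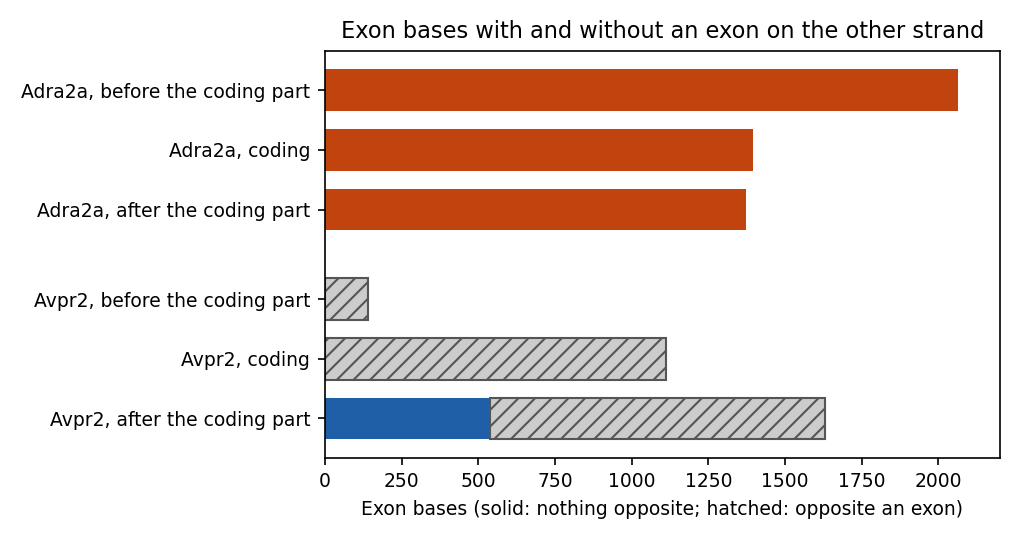
Bars give the exon bases of each gene before, within and after the coding sequence, solid where nothing is annotated opposite and hatched where an exon lies on the other strand. All bars of Adra2a are solid, and for Avpr2 only 539 of the 1631 bases after the coding sequence are.

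Such an overlap is uncommon among annotated genes. Of 21951 protein-coding genes, 77 (0.351%) have at least as large a share of exon bases opposite another exon as Avpr2, and 16664 (75.9%) have none, as Adra2a does. Every coding base lies opposite an exon in 80 (0.364%) of them. Among 335 genes whose symbols mark them as G protein-coupled receptors outside the smell, pheromone and taste families, Avpr2 is the 1 with a share this large, and 269 (80.3%) have no such base. In 2 of the 335, Avpr2 and the prostaglandin receptor gene Ptger1, every coding base lies opposite an exon. Of the 99 protein-coding listed genes, 51 have no exon base opposite an exon, and in 3 every coding base lies opposite an exon. Among all 139 listed genes, non-coding ones included, 5 have a share at least that of Avpr2, including Avpr2 itself, and 60 have none. Avpr2 and A530084C06Rik are the 2 protein-coding genes among these 5, the other members being Gm26649, 4930404A12Rik and A430018G15Rik, all 4 of them named after their values were seen.

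What the base mean of each receptor counts depends on the strand setting of htseq-count, the program that was used, and that setting is not given in the sources used here. The kit name in the labels is read here as NEBNext Ultra II Directional, which keeps the strand of the RNA. The kit alone does not tell which of the settings below was used in counting. If reads were counted on the strand of the gene, all 4832 exon bases of Adra2a and all 2886 of Avpr2 could give counts. The value would then be the RNA of the receptor's own strand for both genes.

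If reads were counted without regard to strand, a read that touches exons of 2 genes is ambiguous and is dropped. Adra2a would keep its 4832 bases, and Avpr2 would keep 539 (18.7%), none of them coding. These 539 bases (73894964 to 73895502) are the far end of the last exon of transcript 3, which is 1 of 4 annotated Avpr2 transcripts. Set over these bases alone, the base mean of Avpr2 was 458 normalized counts per kb, which was 43.1 times Adra2a and rank 4 among the 137 listed genes that have such bases. Adra2a stayed at 10.6 per kb and was at rank 73 on that scale. The listed genes without such bases are Gm26649 and A530084C06Rik, with base means of 394 and 10.3 normalized counts. With this annotation, counting without strand as described here would give them no counts. Without the long Arhgap4 transcript Avpr2 would keep 2274 bases, all 1113 coding bases included.

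If reads were counted on the strand opposite to the gene, reads from 2347 bases of Arhgap4 exon would be given to Avpr2. For Adra2a there is no annotated exon from which such reads could come. If the annotation is complete, the Adra2a base mean can be read as RNA of Adra2a or its locus under the first and second settings. Under the third setting Adra2a mRNA would not be counted. The value would then be RNA of the other strand, where no exon is annotated. The base mean of Avpr2 can be read as RNA of Avpr2, or of its strand at the locus, under the first setting. Under the second it comes from the far end of 1 transcript and may also hold unspliced RNA of Arhgap4 and L1cam. Their GENCODE gene bodies span all 2886 exon bases of Avpr2, that of L1cam only through a non-coding transcript. Under the third it would be RNA of the other strand, on which Arhgap4 exons are annotated. Which setting applied was not tested. A single value per gene does not separate Avpr2 RNA from Arhgap4 RNA. The values of Gm26649 and A530084C06Rik given above bear on the second setting only if the authors' annotation matched the one used here.

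The promoters were set beside the same annotation. In the RefSeq promoter table (GRCm38.p6, from 250 bases before to 50 bases after a gene start), the Avpr2 window at chrX:73891852-73892151 lies opposite the last exon of Arhgap4 over all of its 300 bases in GENCODE. This again rests on the 1 long Arhgap4 transcript, without which 0 of these bases lie opposite an exon, and in RefSeq the Arhgap4 gene ends downstream of the window. The Adra2a window at chr19:54045009-54045308 lies opposite none, and all 300 of its bases lie within the first exon of the longer GENCODE transcript, so the annotations place the start of Adra2a differently. They differ for Avpr2 too, since the RefSeq span of Avpr2 begins 337 bases before the start on which its window is built, and all 300 bases of the window lie inside that span. Of the 300 bases, 206 were G or C for Adra2a and 150 for Avpr2, with a median of 158 over 32851 promoters.

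The letters of motifs tied to cAMP and to start sites were searched on both strands of these windows. The full cAMP response element TGACGTCA was in neither window and in 1.79% of all promoters. The shorter TGACG, which is contained in the full element, was in the Adra2a window and not in that of Avpr2, and in 20.8% of all promoters. The TATA box letters TATAAA were in both windows and in 13.6% of all promoters. The Adra2a match on the gene's strand starts 29 bases before the RefSeq start and is shown because it lies by that start, inside the first exon of the longer GENCODE transcript, with the motif in capitals (chr19:54045218-54045247, plus strand).
Adra2a promoter: tcatcctggggcTATAAAaccagtccagcg

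Other receptors in the list give a measure of how the 2 genes stand among their kind. Of 1839 annotated protein-coding genes with a symbol of a G protein-coupled receptor, 5 (0.272%) are listed. Beside this stand 99 of 21951 annotated protein-coding genes, and 0.251% of all annotated genes, non-coding ones included. The 5 include Adra2a and Avpr2, which were chosen for being listed, so nothing about receptors is read from this count. The others are Gpr15, a homing receptor of lymphocytes, Xcr1, a chemokine receptor of cross-presenting dendritic cells, and the odorant receptor gene Olfr173. Per kb of exon, Gpr15 had a base mean of 41.8, Olfr173 of 12.5 and Xcr1 of 5.83. Opn3, an opsin outside the symbol rule that was added after its values were seen, had 8.71. Avpr2 thus had the highest base mean per kb of these 6 receptors and Adra2a the fourth. The strand setting is unknown, so this orders the values and not the receptors' own RNA.

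Gpr15 has 204 exon bases (12.5%) opposite an exon of Cpox, none of them coding. Xcr1, Olfr173 and Opn3 have 0 bases opposite an exon, as does Adra2a. Opn3 differs from Adra2a in that 461 of its 1913 exon bases are shared with Chml on the same strand, so reads there are ambiguous under each strand setting and its value is uncertain. Avpr2 was the 1 receptor of the 6 with coding bases opposite an exon. Odorant receptors are a large family of similar genes, so reads of Olfr173 could be shared with relatives and its value is uncertain.

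**Figure D4:**
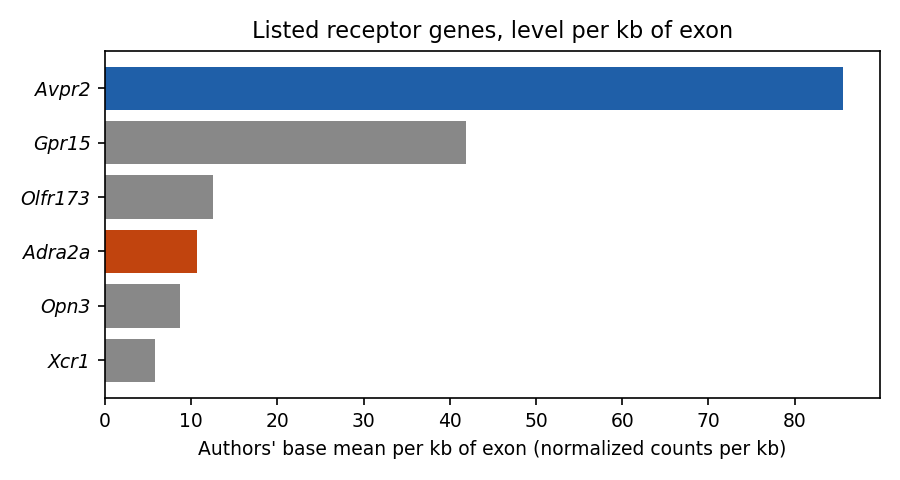
Bars give the authors' base mean per kb of merged exon, in normalized counts per kb, for the 6 listed receptor genes, with no error because no library values were used. Avpr2 is at 85.6 and Gpr15 at 41.8, and Adra2a at 10.6 lies between Olfr173 at 12.5 and Opn3 at 8.71.

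Other genes of the cAMP pathway were looked up in the list. Of 133 genes in the lists of the pathway, 3 are listed, which are Adra2a, Avpr2 and Rgs1. Leaving out the 2 receptors, which were chosen for being listed, 1 of 131 (0.763%) is listed, beside 0.251% of all annotated genes, and nothing about the pathway is read from 1 gene. Adra2a was 1 of 9 adrenergic receptor genes, and Avpr2 was 1 of 6 genes for vasopressin and oxytocin and their receptors. Rgs1, which speeds the shut-off of inhibitory G proteins, was 1 of 18 receptor kinases, arrestins and RGS proteins and had 40.4 normalized counts, or 5.81 per kb. None of 30 other cAMP-coupled receptors of myeloid cells, 11 G protein subunits, 10 adenylyl cyclases, 16 cAMP phosphodiesterases, 19 genes of protein kinase A and Epac or 14 CREB family and cAMP-induced genes is listed. Genes outside the list have no value here, so nothing is known of their level or of a change in them.

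Markers of cell types could not be used to check the label of the cells, because the list holds only genes that the authors' comparison selected. Of 20 dendritic cell markers, Irf8, Cd86 and Xcr1 are listed, with 29.1, 37.2 and 26.0 normalized counts, which is 15% of these markers beside 0.251% of all annotated genes. Of 13 macrophage markers, Lyz2 (7.69%) is listed, with 129 normalized counts or 97.9 per kb of exon. Lyz2, which encodes lysozyme and is known as an abundant mRNA of myeloid cells, was at rank 18 per kb, 3 places above Avpr2. Library depth and strand setting are unknown, so this place is no measure of how abundant Avpr2 RNA was. None of 12 neutrophil and progenitor, 10 mast cell and basophil, 11 megakaryocyte and platelet, 7 B cell, 10 T and NK cell or 8 erythroid markers is listed. Fewer cells of a type and less RNA per cell cannot be told apart in such bulk libraries.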

How the data were processed

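RNA of BMDCs was sequenced in 3 Veh-DC and 3 Rapa-M-DC libraries. The authors used fastx_toolkit for trimming and filtering, Bowtie2 for alignment (build printed as mm38, taken to be GRCm38), HTSeq for counting and DESeq2 for the comparison. Versions, annotation release and strand option are not given in the sources used here. The base mean that was deposited is a signal, namely the authors' mean of size-factor-normalized counts over all 6 libraries. The other deposited columns hold the authors' own comparison (log2 fold change, its standard error, statistic, p-value and adjusted p-value) and were not used, so the planned test between groups was not run. The list is taken to hold the genes past the authors' threshold, as its title says. The methods call the 3 libraries of a group biological replicates.

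All 139 identifiers and symbols matched GENCODE M21 (GRCm38). Exons of all transcripts of a gene were merged. Bases opposite an exon are exon bases covered by an exon of another gene on the other strand. Bases countable without strand are those that no exon of another gene covers on either strand. The interval arithmetic was checked on made-up intervals of known overlap. Base means were divided by kb of exon and ranked. Promoters came from RefSeq (GRCm38.p6), and RefSeq gene spans were an alternative. Calculations were run in Python 3.11.15, with plots from matplotlib 3.10.9.

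The genes named are both receptors, all genes that overlap or neighbour them, listed genes of the cAMP, receptor and marker lists, and the 2 genes above and below each receptor per kb. Genes named outside this rule are said to be so or are needed to describe an overlap (Ptger1, Cpox). The 2 receptors and the lists were chosen with earlier results of these data known.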

Additional observations from a re-analysis of the deposited data

How the results depend on the processing

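No paired analysis was possible because the values used hold no single library, and for the same reason no library could be left out and no other count model run. The base mean per kb of Adra2a was 10.6 over merged exons, over its longest transcript, over bases free of other exons and over basic transcripts, and 36.8 over coding length. That of Avpr2 was 85.6 over merged or basic exons, 88.7 over its longest transcript, 222 over coding length and 458 over bases free of other exons. The rank of Adra2a moved from 70 to 78 with the longest transcript, 42 with no length correction, 73 over free bases and 37 among the 99 protein-coding listed genes. For Avpr2 the rank moved from 21 to 23, 11, 4 and 12 in the same order. The exon bases of Avpr2 opposite a gene were 2347 with all, protein-coding or basic transcripts, 2886 against whole gene bodies, 77 with RefSeq gene spans and 612 without the long Arhgap4 transcript, and the bases countable without strand rose from 539 to 2274 without that transcript. The 300 bases of the Avpr2 promoter window opposite an exon fell to 0 without it. Adra2a had 0 bases opposite a gene under each of these 6 settings. Synonyms added none to the 3 listed pathway genes. The basic set, the RefSeq spans and the removal of the Arhgap4 transcript were chosen after seeing the data. The depth of the libraries is unknown and the order of levels has no error, so Avpr2 above Adra2a on each of these scales is a description of 2 pooled means.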
